A study of Homo sapiens with 18 samples.

Results

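The 31 genes described here make cholesterol and unsaturated fatty acids, or belong to the sterol regulatory element-binding protein (SREBP) system that controls both. They were taken by symbol from a list that uses no measured value, although the list was drawn up with earlier results of these data known. They comprise 8 enzymes of the mevalonate pathway, 11 enzymes that turn its product into sterols, 5 genes of the SREBP factors and their control, 2 genes of sterol transfer and related SREBP targets, and 5 enzymes of fatty acid synthesis. All 31 were listed in both expression tables, among 15358 genes in MCF10A and 15257 in hTERT RPE-1 (called RPE-1 below). MCF10A is a near-normal human breast epithelial line, and hTERT RPE-1 is a retinal pigment epithelial line immortalized with telomerase. Cells of each line received 30 nM of 1 of 3 agents for 72 h before polyadenylated RNA was sequenced. The agents were a non-targeting siRNA (siNT), the hsa-miR-28-5p mimic (miR-28) and the hsa-miR-708-5p mimic (miR-708), which belong to the same microRNA family. The control is therefore an siRNA and not a microRNA mimic, and each line stands for itself alone. Each group held 3 biological replicates, numbered 7, 8 and 9 in MCF10A and 1, 2 and 3 in RPE-1, which makes 18 libraries in all.

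Cholesterol is built from acetyl-CoA through mevalonate, farnesyl diphosphate and squalene, and most enzymes of the route are transcribed under SREBP control. The SREBP precursors, encoded by SREBF1 and SREBF2, sit in the endoplasmic reticulum bound to SCAP, and INSIG proteins hold the complex there while sterols are plentiful. When sterols fall, SCAP escorts the precursor to the Golgi, proteases release its transcription factor domain, and that domain binds sterol regulatory elements in the promoters of sterol and fatty acid genes. SREBF2 is known mainly for driving sterol genes and SREBF1 for driving fatty acid genes. A microRNA lowers mRNAs chiefly through pairing of its seed, bases 2 to 8, with a complementary stretch of the target.

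The mature sequence of the miR-708 mimic's microRNA (chr11:79402077-79402099 of GRCh38.p14, minus strand, RefSeq) is shown because the matches in the members were read from it, with the seed in capitals.
hsa-miR-708-5p: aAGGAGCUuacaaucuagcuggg
The letters opposite the seed are AGCTCCT, or GCTCCTA where the pairing leaves out base 8 and an A stands opposite base 1, and these motifs overlap in 6 letters. They were searched in the 3′ UTR and the coding sequence of 1 canonical GENCODE 44 transcript per gene. In the 3′ UTR, only MVK and FDFT1 carried such a match, 2 of 31 members (6.5%) against 18.7% of all genes tested in MCF10A that could be matched to a transcript. In the coding sequence, 4 of 31 (12.9%) carried one, namely SCD, DHCR7, SREBF1 and SREBF2, against 23.8%. Their surroundings, from the spliced hg38 transcripts, are shown because these genes return in the results, with the match in capitals. Positions given next count from the start of the coding sequence or of the 3′ UTR.
MVK, 3′ UTR position 94, chr12:109596671-109596677, plus strand: cgagcgcccAGCTCCTgacactgct
SCD, coding position 34, exon 2 of 6, chr10:100348070-100348077, plus strand: gatatctctAGCTCCTAtaccaccac
DHCR7, coding position 1139, exon 9 of 9, chr11:71435658-71435664, minus strand: tcatcgagtGCTCCTAcacatccgc
SREBF1, coding position 238, exon 2 of 19, chr17:17820369-17820375, minus strand: gccacattgAGCTCCTctcttgaag
SREBF1, coding position 3164, exon 18 of 19, chr17:17813412-17813418, minus strand: ggacacaccAGCTCCTcgaccgcag
SREBF2, coding position 154, exon 2 of 19, chr22:41866896-41866902, plus strand: cagctgtgtAGCTCCTttcctggca
The match in SCD was the only one of the 8-letter kind, with all 7 seed letters and the A. A match is a description of the letters and was not tested as a binding site. MSMO1 and SREBF2 are marked as microRNA targets by the study. Neither motif occurred in the transcript of MSMO1 searched, while SREBF2 carried the coding match shown.

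Values are normalized read counts (± gives the SE of limma unless SD is named), that is estimated reads per gene divided by a size factor of the library. The depth of a library, estimated from the steps of its low values, was 19.4–31.7 M reads in MCF10A and 23.8–40.3 M in RPE-1, so that 3 reads corresponded to a value between 2.35 and 4.40, far below every value of a member. In MCF10A, all 10 basal breast markers examined had a siNT mean of at least 100, and their summed level moved from 222000–238400 with siNT to 156200–169400 with miR-28 and 132200–157700 with miR-708. In RPE-1, 7 of 10 retinal pigment epithelial markers were listed, 5 of them at a siNT mean of at least 100, while TYR, RPE65 and TTR were absent from the table and the collagen gene COL1A1, no marker of this epithelium, was at 41390 with siNT, at 9572 with miR-28 and at 2938 with miR-708. The summed level of the listed retinal pigment epithelial markers moved in RPE-1 from 2949–4344 to 1953–2076 and 2112–2283 in the same order. The markers at 100 or more did not move alike. MITF, OTX2, PMEL and TYRP1 were lower with both mimics, while BEST1 was at 165.5 with siNT, 230.4 with miR-28 and 205.4 with miR-708. BEST1 is not particular to this line, being at 794.6 with siNT in the separately scaled MCF10A values. The part of these marker changes in the results below was not tested. The members together took 0.592–0.686% of all values with siNT in MCF10A, 0.408–0.552% with miR-28 and 0.408–0.603% with miR-708, and replicate 7 was the highest of the 3 replicates in each of these groups. In RPE-1 they took 0.497–0.523%, 0.237–0.312% and 0.339–0.379%, and miR-28 replicate 1, the lowest library, held 15.12% ribosomal RNA where the other 8 held 4.23–7.20%. These shares lean on SCD, which had the highest mean of the members in each group. Its means were 77212, 13249 and 15339 in RPE-1 and 53158, 21889 and 22220 in MCF10A (siNT, miR-28, miR-708). The shares were not computed without SCD. Reads of 6 members with named pseudogenes (IDI1, FDPS, CYP51A1, HSD17B7, TMEM97 and SCD), and of 8 whose exons overlap a coding gene on the other strand (ACAT2, MVK, GGPS1, CYP51A1, SREBF1, TMEM97, FADS1 and FADS2), may have been shared with those genes. The same holds for 4 members whose exons overlap a coding gene on the same strand (GGPS1, CYP51A1, TM7SF2 and EBP).

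In siNT libraries, SCD had the highest level per kb of transcript among the members in both lines, 10130 ± 1635 (SD, n = 3) in MCF10A and 14720 ± 741 (SD, n = 3) in RPE-1. SCD is the desaturase that makes monounsaturated from saturated fatty acids. In MCF10A it was followed by the sterol route enzymes FDPS (7737 ± 761 per kb), FDFT1 (6028 ± 579) and SQLE (5319 ± 691). The siNT libraries of SCD (8475–11740 per kb) lay above those of FDPS (6865–8263), those of FDPS above those of FDFT1 (5432–6589), and those of FDFT1 overlapped those of SQLE (4522–5745). RPE-1 had another order: FADS2, a desaturase of polyunsaturated fatty acids, stood at rank 2 with 3565 ± 333 per kb, against rank 28 and 214.7 ± 37.3 in MCF10A, and ACLY, which supplies cytosolic acetyl-CoA, followed at 3338 ± 61.0 with overlapping libraries. The lowest members were TM7SF2 in MCF10A (59.7 ± 4.30 per kb) and MVK in RPE-1 (144.4 ± 16.7 per kb, overlapping TM7SF2 at 144.6 ± 2.79). The tables of the lines were scaled separately, so ranks and not levels are compared between them.

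**Figure D1:**
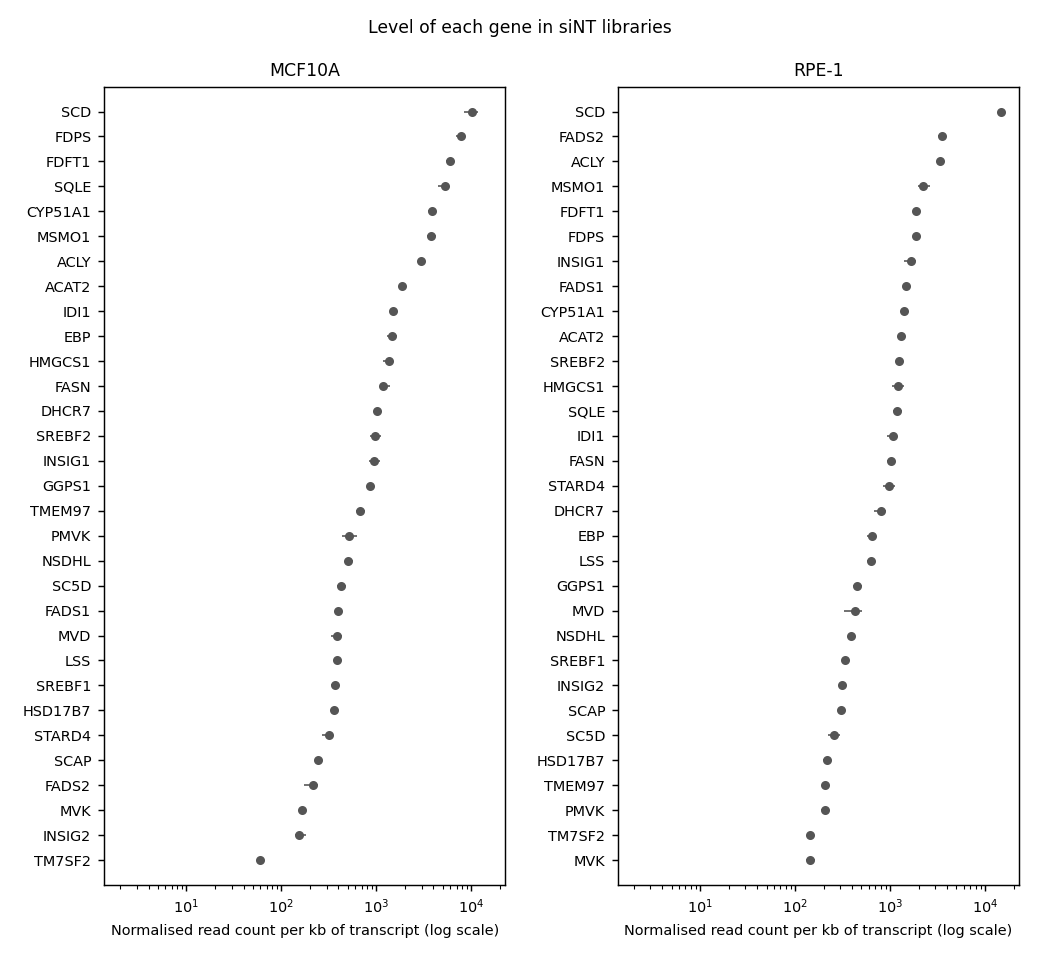
Normalized read count per kb of transcript (log axis) of the 31 genes in the siNT libraries of MCF10A (left) and RPE-1 (right), ordered by level; points are means of 3 libraries and bars run from the lowest to the highest library. SCD heads both panels, and FADS2 stands at rank 28 in MCF10A and at rank 2 in RPE-1.

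Which members each mimic changed was asked within each line. More members fell than rose with either mimic in either line. SCD, SREBF1, FADS2, MVK and DHCR7 were called lower in each of the 4 comparisons with siNT, and SC5D was called higher in each. The share of all genes called alike in all 4 was not computed. In MCF10A, the calls of SC5D with each mimic were lost without some single libraries, as were those of DHCR7 and FADS2 with miR-28. With miR-28 in MCF10A, 9 of 31 members were called lower (limma, adjusted p below 0.05) where 12% of all genes tested were lower, and 2 were called higher where 10.7% were. With miR-708 in MCF10A the counts were 14 lower (17.3% of all genes) and 4 higher (15.5%). With miR-28 in RPE-1 they were 15 lower (23.5%) and 2 higher (23.3%), and with miR-708 in RPE-1 they were 16 lower (31.2%) and 5 higher (30.9%). The median log2 fold change of the members was -0.29, -0.36, -0.28 and -0.27 in this order, while the median of all genes tested lay between -0.005 and 0.006. In bulk RNA, fewer cells of a kind and less RNA per cell cannot be told apart. The comparisons of a line share their siNT libraries, so the columns of the mimics are not independent of each other.

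With the replicate number as a block, the numbers having been taken to pair the libraries of MCF10A, 13 members in that line were lower and 2 higher with miR-28, ACAT2, SQLE, CYP51A1 and SREBF2 being added, and 15 lower and 5 higher with miR-708, SQLE and INSIG2 being added. The counts also moved with the scaling and, in MCF10A, with single libraries. With each library scaled to its total, the median of all genes stood at 0.12 and 0.14 in MCF10A and at 0.09 and 0.32 in RPE-1 (miR-28, then miR-708), and the split of calls in RPE-1 with miR-708 became 10 lower and 12 higher. The split became 6 lower and 3 higher with miR-28 in MCF10A and 10 lower and 5 higher with miR-708. Relative to the median of all genes, the members' median was -0.28 with miR-708 in RPE-1 and -0.30 with miR-28 in MCF10A under both scalings. Dividing a library by 1 factor shifts all its genes alike, so this sameness was fixed in advance and tests nothing. In MCF10A with miR-28, the 9 lower calls became 4 without siNT replicate 7, 4 without siNT replicate 8 and 4 without miR-28 replicate 8. With miR-708 the 14 lower calls became 8 without miR-708 replicate 8 and 7 without miR-708 replicate 9. Without replicate 7 in all 3 groups of MCF10A, a choice made after the values were seen, 16 members were lower and 1 higher with miR-28, and 18 lower and 5 higher with miR-708. In RPE-1 the lower counts stayed between 14 and 17 with miR-28 and between 13 and 16 with miR-708 when any single library was left out. The shares of all genes called under these other settings were not computed. Whether members gained or lost calls more than genes in general is therefore not known.

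**Figure D2:**
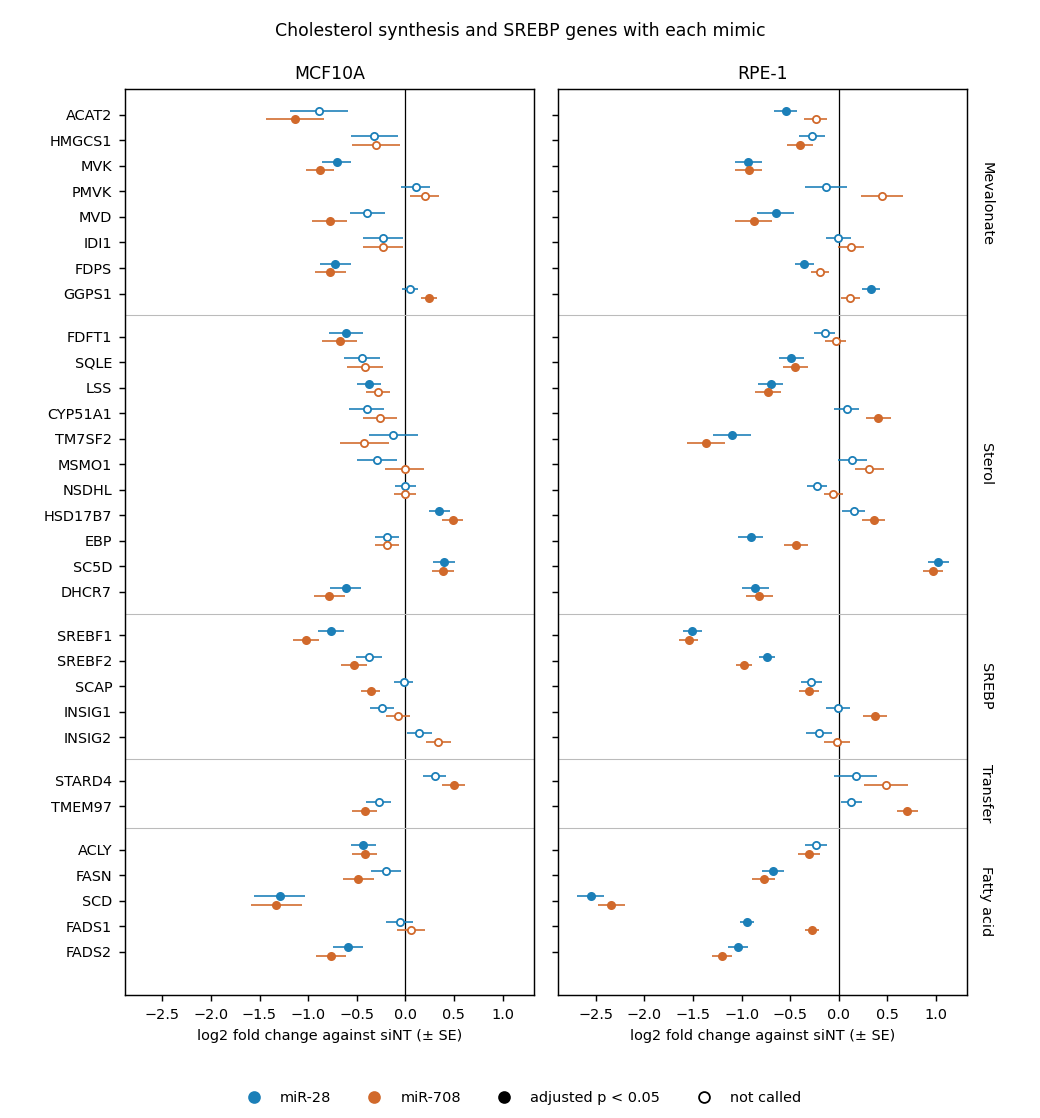
Log2 fold change against siNT (horizontal axis, points with standard errors from limma) of the 31 genes, ordered by role, in MCF10A (left) and RPE-1 (right); blue is miR-28, orange is miR-708, and filled points have an adjusted p below 0.05. SCD lies farthest to the left in both panels, SREBF1, MVK, DHCR7 and FADS2 are filled and left of 0 with each mimic in each line, and SC5D is filled and right of 0.

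Both SREBP genes fell with each mimic in RPE-1 and with miR-708 in MCF10A, and SREBF1 also fell with miR-28 in MCF10A. SREBF1 was at 1780.5, 1640.2 and 1943 with siNT in MCF10A, at 1268, 897 and 1011 with miR-28 and at 963, 874 and 801 with miR-708. In RPE-1 it was at 1752.5, 1670.1 and 1542 with siNT, at 599.9, 557 and 586 with miR-28 and at 595, 606 and 503 with miR-708. No library with a mimic reached the lowest siNT library in either line. The log2 fold changes were -0.77 ± 0.13 (SE; adjusted p = 0.00307) with miR-28 and -1.02 ± 0.13 (adjusted p = 0.000278) with miR-708 in MCF10A. In RPE-1 they were -1.51 ± 0.10 (adjusted p = 2.26e-06) and -1.54 ± 0.10 (adjusted p = 6.99e-07), that is 0.352 and 0.343 of the siNT level. These calls held without any single library.

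SREBF2, the factor of the sterol genes and a target marked by the study, was at 5835, 4510.5 and 4725 with siNT in MCF10A, at 4199.7, 3539 and 3826 with miR-28 and at 4143, 3165 and 3174 with miR-708. In RPE-1 it was at 6325, 6958 and 6182 with siNT, 3639, 3811 and 4201 with miR-28, and 3437, 3275.5 and 3169 with miR-708. The groups did not overlap siNT in either line, and with miR-708 all 3 RPE-1 libraries were also below all 3 with miR-28. Its log2 fold changes in RPE-1 were -0.74 ± 0.09 (SE; adjusted p = 7.23e-05) with miR-28 and -0.98 ± 0.09 (adjusted p = 5.04e-06) with miR-708. In MCF10A the change was -0.53 ± 0.13 with miR-708 (adjusted p = 0.0114), a call lost without miR-708 replicate 8 (adjusted p = 0.0502) or miR-708 replicate 9 (0.0523). With miR-28 in MCF10A it was -0.38 ± 0.13 and missed the threshold (adjusted p = 0.0631), and with the replicate number as a block it passed (adjusted p = 0.00705).

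The other members of the SREBP group escort the precursors or hold them back. SCAP, the escort, had log2 fold changes of -0.02 ± 0.10 and -0.36 ± 0.10 in MCF10A and -0.28 ± 0.11 and -0.31 ± 0.11 in RPE-1 (SE, miR-28 then miR-708), and those with miR-708 were called (adjusted p = 0.016 and 0.0268). The SCAP call in MCF10A was lost without siNT replicate 8 (adjusted p = 0.055) or miR-708 replicate 9 (0.0529), and that in RPE-1 without siNT replicate 1 (adjusted p = 0.111), siNT replicate 2 (0.0527), miR-708 replicate 1 (0.0538) or miR-708 replicate 3 (0.0883). Scaled to library totals, SCAP with miR-708 in RPE-1 was at 0.01 and not called, so its direction there depended on the scaling. INSIG1, the retention protein that SREBPs themselves induce, was at 4120.5, 4719.7 and 5506 with siNT in RPE-1, at 4049.7, 4986 and 5168 with miR-28 and at 6536, 5985 and 5963 with miR-708. The miR-708 libraries lay above both other groups, and INSIG1 rose by 0.37 ± 0.12 on the log2 scale (adjusted p = 0.0215) with this mimic, a call lost without siNT replicate 1 (adjusted p = 0.0956), siNT replicate 2 (0.0547) or miR-708 replicate 1 (0.0736). In MCF10A, INSIG1 was at 2463.5, 3181 and 2555 with siNT, 2297, 2179 and 2422 with miR-28, and 2847, 2218 and 2721 with miR-708, with the miR-28 libraries below siNT, and no difference was called. INSIG2 had values between -0.20 ± 0.13 and 0.34 ± 0.13 and was not called in any comparison, but with the replicate block in MCF10A its value with miR-708 passed (adjusted p = 0.0419).

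**Figure D3:**
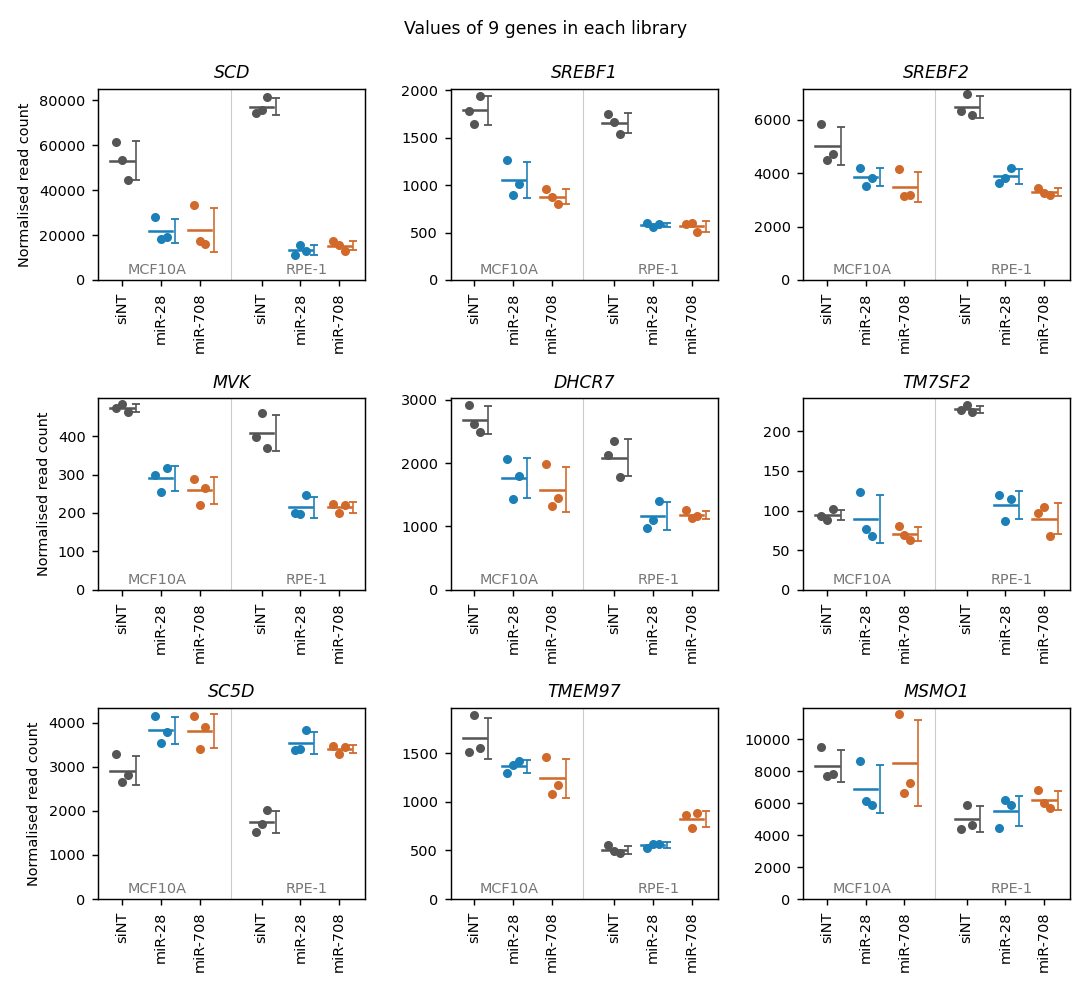
Normalized read count (vertical axes, from 0) of 9 genes in each library, with siNT in grey, miR-28 in blue and miR-708 in orange, MCF10A to the left and RPE-1 to the right of each panel; horizontal lines are means, bars are SDs of 3 libraries, and points run from the lowest to the highest replicate number. SCD and SREBF1 libraries with a mimic lie below all siNT libraries of the line, SC5D libraries above them, and TMEM97 with miR-708 lies below siNT in MCF10A and above it in RPE-1.

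In the mevalonate pathway, the kinase MVK fell in each comparison with siNT. It was at 475, 483 and 463 with siNT in MCF10A, at 300.3, 255 and 317 with miR-28 and at 289.9, 221 and 265 with miR-708. MVK stood in RPE-1 at 398, 461 and 368 with siNT, 199.6, 198 and 245.8 with miR-28, and 224, 198.8 and 219.5 with miR-708. In neither line did a library with a mimic reach the siNT range. The log2 fold changes were -0.71 ± 0.14 and -0.88 ± 0.14 in MCF10A (SE; adjusted p = 0.00629 and 0.0011) and -0.93 ± 0.14 and -0.93 ± 0.14 in RPE-1 (adjusted p = 0.000358 and 0.000179), and none of these calls was lost without a single library.

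ACAT2, the thiolase that joins acetyl-CoA units at the start of the pathway, was at 3041, 2807 and 2629 with siNT in MCF10A, at 2189, 1144 and 1409 with miR-28 and at 2222, 969.8 and 980.1 with miR-708. Replicate 7 was the highest in all 3 groups, and with either mimic it was farther from replicates 8 and 9 than these were from each other. In RPE-1 ACAT2 was at 1886, 2079 and 1967 with siNT, 1145, 1369 and 1579.7 with miR-28, and 1826, 1519 and 1691 with miR-708. The fall with miR-708 in MCF10A was called (-1.14 ± 0.30, adjusted p = 0.0133) and lost without miR-708 replicate 8 (adjusted p = 0.0593) or miR-708 replicate 9 (0.0599). With miR-28 in MCF10A ACAT2 was at -0.89 ± 0.30 on the log2 scale, just outside the threshold (adjusted p = 0.0512), and passed with the replicate block (adjusted p = 0.00179). In RPE-1 it was called with miR-28 (-0.55 ± 0.12, adjusted p = 0.0037) and not with miR-708 (-0.24 ± 0.12, adjusted p = 0.103).

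Of the other mevalonate genes, FDPS, which makes farnesyl diphosphate, was lower with both mimics in MCF10A (-0.72 ± 0.16 and -0.77 ± 0.16, adjusted p = 0.00932 and 0.00393) and with miR-28 in RPE-1 (-0.35 ± 0.09, adjusted p = 0.0103). MVD, the decarboxylase, was lower with miR-708 in both lines (-0.78 ± 0.18 in MCF10A and -0.88 ± 0.19 in RPE-1, adjusted p = 0.00711 and 0.00224) and with miR-28 in RPE-1 (-0.65 ± 0.19, adjusted p = 0.0169, lost without siNT replicate 1 (adjusted p = 0.0586) or siNT replicate 2 (0.0714)). HMGCS1, which makes HMG-CoA, was lower with miR-708 in RPE-1 alone (-0.40 ± 0.14, adjusted p = 0.0245, lost without siNT replicate 2 (adjusted p = 0.103), miR-708 replicate 2 (0.062) or miR-708 replicate 3 (0.0821)). The only mevalonate gene called higher was GGPS1, which turns farnesyl diphosphate into the geranylgeranyl donor and away from sterols. It was called with miR-708 in MCF10A (0.25 ± 0.08, adjusted p = 0.0426) and with miR-28 in RPE-1 (0.33 ± 0.10, adjusted p = 0.0161), and these calls were lost without each of 8 of the 9 libraries of MCF10A and each of 2 libraries of RPE-1, left out singly, at an adjusted p of up to 0.13 and 0.0712. PMVK and IDI1, a kinase and an isomerase, were not called with either mimic in either line, with log2 fold changes between -0.23 ± 0.21 for IDI1 and 0.45 ± 0.22 for PMVK. With miR-708 in RPE-1, all PMVK libraries (267–303) were above all siNT libraries (189–217).

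Among the sterol enzymes, changes went in both directions. DHCR7, a reductase at the end of the route, was at 2923, 2613 and 2499.6 with siNT in MCF10A, at 2059, 1439.6 and 1794 with miR-28 and at 1979, 1319 and 1440.5 with miR-708. The RPE-1 values were 2122, 2355 and 1786 with siNT, 966, 1106 and 1400.3 with miR-28, and 1251.5, 1127 and 1155.5 with miR-708. No library with a mimic overlapped siNT. DHCR7 was called lower throughout, at -0.61 ± 0.16 and -0.78 ± 0.16 in MCF10A (log2, SE; adjusted p = 0.0202 and 0.00397) and -0.86 ± 0.14 and -0.82 ± 0.14 in RPE-1 (adjusted p = 0.000713 and 0.000515). The call with miR-28 in MCF10A was lost without siNT replicate 7 (adjusted p = 0.0675), siNT replicate 8 (0.051) or miR-28 replicate 8 (0.0841).

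SC5D, an oxidase that acts just before DHCR7, went the other way. It was at 3282, 2648 and 2807 with siNT in MCF10A, at 4149.5, 3529 and 3789 with miR-28 and at 4147, 3400.5 and 3899.6 with miR-708. RPE-1 libraries held 1519, 1707 and 2019 with siNT, 3382, 3409 and 3824.5 with miR-28, and 3459.6, 3286.5 and 3456 with miR-708. Each library with a mimic was above each siNT library of its line. In RPE-1 SC5D reached 2.03 and 1.96 times siNT (log2 1.02 ± 0.10 and 0.97 ± 0.10, adjusted p = 3.64e-05 and 2.24e-05). In MCF10A the rises were 0.40 ± 0.11 and 0.39 ± 0.11 (adjusted p = 0.0282 and 0.0209), and were lost without siNT replicate 8 (adjusted p = 0.102), siNT replicate 9 (0.0893), miR-28 replicate 7 (0.0728) or miR-28 replicate 9 (0.0661) for miR-28 and without siNT replicate 8 (adjusted p = 0.0806), siNT replicate 9 (0.0697), miR-708 replicate 7 (0.0507) or miR-708 replicate 9 (0.0699) for miR-708.

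TM7SF2, a sterol reductase earlier in the route, was at 227, 233 and 225 with siNT in RPE-1, at 120, 87.1 and 114 with miR-28 and at 96.5, 105 and 67.2 with miR-708. The siNT libraries lay close together and well above all 6 others. TM7SF2 was called lower at -1.10 ± 0.20 and -1.37 ± 0.20 on the log2 scale (SE; adjusted p = 0.00114 and 0.000145). In MCF10A its values were 93.4, 87.8 and 101 with siNT, 123, 76.3 and 68.0 with miR-28, and 80.0, 68.9 and 62.0 with miR-708, where the miR-28 libraries lay on both sides of siNT and the miR-708 libraries below it, and no difference was called. EBP, the isomerase that precedes SC5D, was at 751, 777 and 641 with siNT in RPE-1, at 368, 448 and 344 with miR-28 and at 552, 556 and 486 with miR-708. The 3 groups formed 3 separate levels, with log2 fold changes of -0.91 ± 0.13 (adjusted p = 0.000266) and -0.44 ± 0.13 (adjusted p = 0.0112). In MCF10A EBP stood at 1644, 1843 and 1445 with siNT, 1475, 1318 and 1509 with miR-28, and 1680.2, 1312 and 1335.5 with miR-708, and the groups overlapped.

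MSMO1, the methyl sterol oxidase labelled as a microRNA target, was not called in any comparison. Its values were 9504, 7688 and 7799 with siNT in MCF10A, 8622, 6157 and 5852 with miR-28 and 11573, 6656 and 7275 with miR-708. In RPE-1 they were 4379, 5906 and 4661 with siNT, 4453, 6181 and 5856 with miR-28, and 6788, 6032 and 5666 with miR-708. All groups overlapped siNT, and replicate 7 was the highest of its group in MCF10A throughout. The log2 fold changes were -0.29 ± 0.20 and -0.01 ± 0.20 in MCF10A and 0.14 ± 0.15 and 0.32 ± 0.15 in RPE-1, with 95% intervals of -0.74 to 0.16, -0.46 to 0.44, -0.18 to 0.46 and -0.01 to 0.64.

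The remaining sterol enzymes are given by their fold changes. LSS, lanosterol synthase, was lower with both mimics in RPE-1 (-0.70 ± 0.13 and -0.73 ± 0.13, adjusted p = 0.0015 and 0.00066), and its call with miR-28 in MCF10A (-0.38 ± 0.12, adjusted p = 0.0474) was lost without each of 7 libraries, left out singly, at an adjusted p of up to 0.18. FDFT1, squalene synthase, was lower in MCF10A (-0.61 ± 0.18 and -0.67 ± 0.18, adjusted p = 0.0311 and 0.0141), with calls lost without siNT replicate 7 (adjusted p = 0.0949), siNT replicate 8 (0.0795), miR-28 replicate 8 (0.121) or miR-28 replicate 9 (0.0766) for miR-28 and without siNT replicate 7 (adjusted p = 0.0505), miR-708 replicate 8 (0.0634) or miR-708 replicate 9 (0.0609) for miR-708, and was at -0.14 ± 0.10 and -0.03 ± 0.10 in RPE-1. SQLE, squalene epoxidase, had like values in both lines, -0.45 ± 0.18 and -0.42 ± 0.18 in MCF10A and -0.49 ± 0.13 and -0.45 ± 0.13 in RPE-1. Those in RPE-1 were called (adjusted p = 0.00981 and 0.011), and those in MCF10A were not (adjusted p = 0.103 and 0.105) but passed with the replicate block (adjusted p = 0.0198 and 0.0212). CYP51A1, lanosterol demethylase, rose with miR-708 in RPE-1 (0.41 ± 0.13, adjusted p = 0.0175, lost without siNT replicate 1 (adjusted p = 0.0613), siNT replicate 3 (0.0501) or miR-708 replicate 1 (0.0622)), while its value with miR-28 in MCF10A, -0.40 ± 0.18, missed the threshold (adjusted p = 0.122) and passed with the block (adjusted p = 0.019). HSD17B7, a ketosteroid reductase, was higher with miR-708 in MCF10A (0.49 ± 0.11, adjusted p = 0.0057). It was also called higher with miR-28 in MCF10A (0.35 ± 0.11, adjusted p = 0.0376) and with miR-708 in RPE-1 (0.36 ± 0.12, adjusted p = 0.0217), calls lost without 7 and 3 single libraries respectively, at an adjusted p of up to 0.118 and 0.0666. NSDHL, a sterol dehydrogenase, was not called and its largest log2 fold change was -0.22 ± 0.10.

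The largest change of any member was in SCD. It was at 61593, 53431 and 44450 with siNT in MCF10A, at 27929, 18425 and 19313 with miR-28 and at 33342, 17454 and 15864 with miR-708. Its RPE-1 values were 74218, 75817 and 81602 with siNT, 11221, 15533 and 12993 with miR-28 and 17205, 15707 and 13106 with miR-708. The groups did not overlap siNT, and in MCF10A replicate 7 was the highest of each group. SCD fell to 0.408 and 0.398 of siNT in MCF10A (log2 -1.29 ± 0.26 and -1.33 ± 0.26, adjusted p = 0.00618 and 0.00306) and to 0.17 and 0.198 in RPE-1 (log2 -2.55 ± 0.14 and -2.34 ± 0.14, adjusted p = 7.43e-07 and 4.67e-07). All 4 calls held without any single library.

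The desaturase FADS2 was at 748, 710.3 and 532 with siNT in MCF10A, at 417, 405 and 493 with miR-28 and at 431, 382 and 347 with miR-708. In RPE-1, where it ranked much higher among the members, it was at 11465, 11753 and 9843 with siNT, 5068, 5355 and 5673 with miR-28, and 5201.5, 4836 and 4338 with miR-708. All libraries with a mimic were below all siNT libraries. FADS2 was lower by limma at -0.59 ± 0.15 and -0.77 ± 0.15 in MCF10A (log2, SE; adjusted p = 0.0202 and 0.00334), with the call for miR-28 lost without siNT replicate 7 (adjusted p = 0.0758), siNT replicate 8 (0.0729) or miR-28 replicate 8 (0.0756), and at -1.03 ± 0.10 and -1.20 ± 0.10 in RPE-1 (adjusted p = 2.49e-05 and 3.84e-06).

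Its neighbour FADS1, which acts later on the same fatty acids, was at 6394, 6239.6 and 6513 with siNT in RPE-1, at 3356, 3390.4 and 3214 with miR-28 and at 5506, 5077.5 and 5267 with miR-708. The miR-708 libraries stood between the other groups, without overlap. The fitted level with miR-28 was 0.52 of siNT, and the log2 fold changes were -0.94 ± 0.07 (adjusted p = 5.34e-06) and -0.27 ± 0.07 (adjusted p = 0.00686). In MCF10A FADS1 stood at 1701, 1803 and 1658 with siNT, 1392, 1628 and 1983 with miR-28, and 1977, 1492 and 1959 with miR-708, with overlapping groups and no call. FASN, the synthase of saturated fatty acids, was lower in RPE-1 with both mimics (-0.68 ± 0.12 and -0.77 ± 0.12, adjusted p = 0.000952 and 0.000215) and with miR-708 in MCF10A (-0.49 ± 0.16, adjusted p = 0.0359), and the latter was lost without siNT replicate 7 (adjusted p = 0.131), siNT replicate 8 (0.0531), siNT replicate 9 (0.0561), miR-708 replicate 8 (0.137) or miR-708 replicate 9 (0.0799). ACLY was called lower with both mimics in MCF10A (-0.43 ± 0.13 and -0.42 ± 0.13, adjusted p = 0.0322 and 0.0265) and with miR-708 in RPE-1 (-0.31 ± 0.11, adjusted p = 0.0312), and each of these calls was lost without 4 or 5 single libraries, at an adjusted p of up to 0.121. Scaled to library totals, FADS1 and ACLY with miR-708 in RPE-1 were at 0.05 and 0.01 on the log2 scale, so the direction of these small changes depended on the scaling.

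The sterol transfer gene STARD4, a carrier of sterols between membranes, was at 1591, 1237 and 1538 with siNT in MCF10A, at 2006, 1823 and 1550.4 with miR-28 and at 2049, 1969 and 2105 with miR-708. The miR-708 libraries were above all siNT libraries and STARD4 rose by 0.50 ± 0.12 (adjusted p = 0.00974). In RPE-1 it was at 3869, 4584 and 5177 with siNT, 3473, 7403 and 5123 with miR-28, and 5608, 6963 and 6446 with miR-708, where the miR-28 libraries were widely spread, and the value with miR-708, 0.48 ± 0.23, missed the threshold (adjusted p = 0.0829). TMEM97, a sterol-responsive membrane protein of the endoplasmic reticulum, was at 1511, 1893 and 1557 with siNT in MCF10A, at 1291, 1383 and 1416 with miR-28 and at 1462, 1084 and 1175 with miR-708. In RPE-1 it was at 553, 491 and 478 with siNT, 521, 571 and 569 with miR-28, and 864, 734 and 885 with miR-708. With miR-708 the 3 libraries were below all siNT libraries in MCF10A and above all of them in RPE-1. The log2 fold changes were -0.42 ± 0.13 in MCF10A (adjusted p = 0.0265, lost without siNT replicate 8 (adjusted p = 0.105), miR-708 replicate 8 (0.108) or miR-708 replicate 9 (0.0878)) and 0.70 ± 0.11 in RPE-1 (adjusted p = 0.00022).

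Whether the mimics differed was tested directly, miR-708 against miR-28. In MCF10A, limma called 0 members higher (1.28% of all genes tested) and 0 lower (0.265%). At an unadjusted p below 0.05, 1 was higher (GGPS1) and 1 lower (SCAP), where 15.8% of all genes passed in either direction. The differences ran from -0.38 to 0.28 on the log2 scale and their 95% intervals lay between -0.90 and 0.73, the lower limit being that of ACAT2 (-0.90 to 0.40) and the upper that of MSMO1 (-0.16 to 0.73). For SCD the interval was -0.61 to 0.54 and for SREBF1 -0.55 to 0.04. In RPE-1, 4 members were higher with miR-708 (9.88% of all genes) and 0 were lower (11.4%). At an unadjusted p below 0.05, 7 were higher and 2 lower, where 35.3% of all genes passed in either direction. FADS1 (0.67 ± 0.07, SE; adjusted p = 0.000451) and TMEM97 (0.58 ± 0.11, adjusted p = 0.00501) were called whichever library was left out. EBP (0.47 ± 0.13, adjusted p = 0.0262) lost its call without miR-28 replicate 1 (adjusted p = 0.0686), miR-28 replicate 3 (0.1), miR-708 replicate 1 (0.0847) or miR-708 replicate 2 (0.0777). INSIG1 (0.39 ± 0.12, adjusted p = 0.0476) lost it without siNT replicate 2 (adjusted p = 0.0666), miR-28 replicate 1 (0.142), miR-28 replicate 3 (0.0625), miR-708 replicate 1 (0.14), miR-708 replicate 2 (0.0869) or miR-708 replicate 3 (0.103). FADS1 and EBP were thus less reduced with miR-708 than with miR-28, and TMEM97 and INSIG1 rose with miR-708. For SCD, SREBF1, MVK, DHCR7, SC5D and FADS2 the RPE-1 intervals of the difference were -0.10 to 0.53, -0.26 to 0.18, -0.30 to 0.31, -0.27 to 0.35, -0.29 to 0.18 and -0.39 to 0.06. With library totals, 12 members were called higher and 0 lower, while the median of all genes moved to 0.23.

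The same mimic was compared between the lines, which share no libraries. Called lower with miR-28 in both lines were 7 members (DHCR7, FADS2, FDPS, LSS, MVK, SCD and SREBF1), 77.8% of the 9 in MCF10A and 46.7% of the 15 in RPE-1, where the shares over all genes tested in both lines were 56.3% and 29.6%. With miR-708 there were 10 (ACLY, DHCR7, FADS2, FASN, MVD, MVK, SCAP, SCD, SREBF1 and SREBF2), 71.4% of 14 and 62.5% of 16, against 61.1% and 34.7%. SC5D was higher in both lines with each mimic, and HSD17B7 with miR-708. The members called higher in both lines were thus 1 with miR-28 (of 2 in MCF10A and 2 in RPE-1, where over all genes the shared calls were 55.2% and 24.5%) and 2 with miR-708 (of 4 and 5, where over all genes they were 62.0% and 30.6%).

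The size of the responses was then compared, as the log2 fold change in RPE-1 minus that in MCF10A. With miR-28, 5 members were lower by this measure (11.3% of all genes) and 1 was higher (12.1%). SCD fell more in RPE-1 (-1.26 ± 0.30, adjusted p = 0.00615), as did SREBF1 (-0.74 ± 0.17, adjusted p = 0.00337). FADS1 (-0.88 ± 0.16, adjusted p = 0.00103) and EBP (-0.71 ± 0.18, adjusted p = 0.0064) were lower in RPE-1 and near siNT in MCF10A. SC5D rose more in RPE-1, with a difference of 0.63 ± 0.15 (adjusted p = 0.00581). These 5 held without any single library, while TM7SF2 (-0.97 ± 0.32, adjusted p = 0.0316) lost its call without MCF10A siNT replicate 7 (adjusted p = 0.0655), MCF10A siNT replicate 8 (0.0753), MCF10A siNT replicate 9 (0.0546), MCF10A miR-28 replicate 7 (0.0929), RPE-1 siNT replicate 1 (0.0514), RPE-1 siNT replicate 2 (0.0584) or RPE-1 miR-28 replicate 2 (0.0724). With the replicate block, 7 members were lower and 3 higher, FDFT1, CYP51A1, SREBF2 and FASN being added (adjusted p = 0.0354, 0.0361, 0.0358 and 0.0281). The block was fitted in both lines, although the numbers in RPE-1 were not taken to pair mimic libraries with siNT. Without replicate 7 in MCF10A, 6 were lower and 7 higher.

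With miR-708, 4 members were lower in RPE-1 minus MCF10A (19.6% of all genes) and 7 were higher (20.2%). TMEM97 differed most, by 1.12 ± 0.17 (adjusted p = 2.24e-05), having gone down in MCF10A and up in RPE-1. SCD (-1.01 ± 0.30, adjusted p = 0.0123) and SC5D (0.58 ± 0.15, adjusted p = 0.005) again responded more in RPE-1, and these 3 held without any single library. SREBF1 (-0.52 ± 0.17, adjusted p = 0.0171) was lost without MCF10A siNT replicate 8 (adjusted p = 0.0555). SREBF2 (-0.45 ± 0.16, adjusted p = 0.0292) was lost without MCF10A siNT replicate 8 (adjusted p = 0.0958), MCF10A siNT replicate 9 (0.0842), MCF10A miR-708 replicate 7 (0.0917), RPE-1 siNT replicate 2 (0.0653) or RPE-1 miR-708 replicate 3 (0.0547). TM7SF2 (-0.94 ± 0.32, adjusted p = 0.0228) was lost without MCF10A siNT replicate 8 (adjusted p = 0.0571), MCF10A miR-708 replicate 7 (0.0549) or RPE-1 miR-708 replicate 3 (0.0668). In the other direction, ACAT2 (0.90 ± 0.32, adjusted p = 0.0365), CYP51A1 (0.67 ± 0.22, adjusted p = 0.0193), FDFT1 (0.64 ± 0.21, adjusted p = 0.0194) and FDPS (0.58 ± 0.18, adjusted p = 0.0182), enzymes of the sterol route, stood higher against siNT in RPE-1 than in MCF10A, and so did INSIG1 (0.45 ± 0.17, adjusted p = 0.0452). These 5 calls were lost without some single libraries, at an adjusted p of up to 0.134, 0.0747, 0.0792, 0.0693 and 0.139. The 7 higher calls became 3 without MCF10A siNT replicate 7, 4 without siNT replicate 8, and 2 without miR-708 replicate 8 or replicate 9. The 4 lower calls became 2 without MCF10A siNT replicate 8 or RPE-1 miR-708 replicate 3. With library totals, 1 member was lower and 7 were higher.

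**Figure D4:**
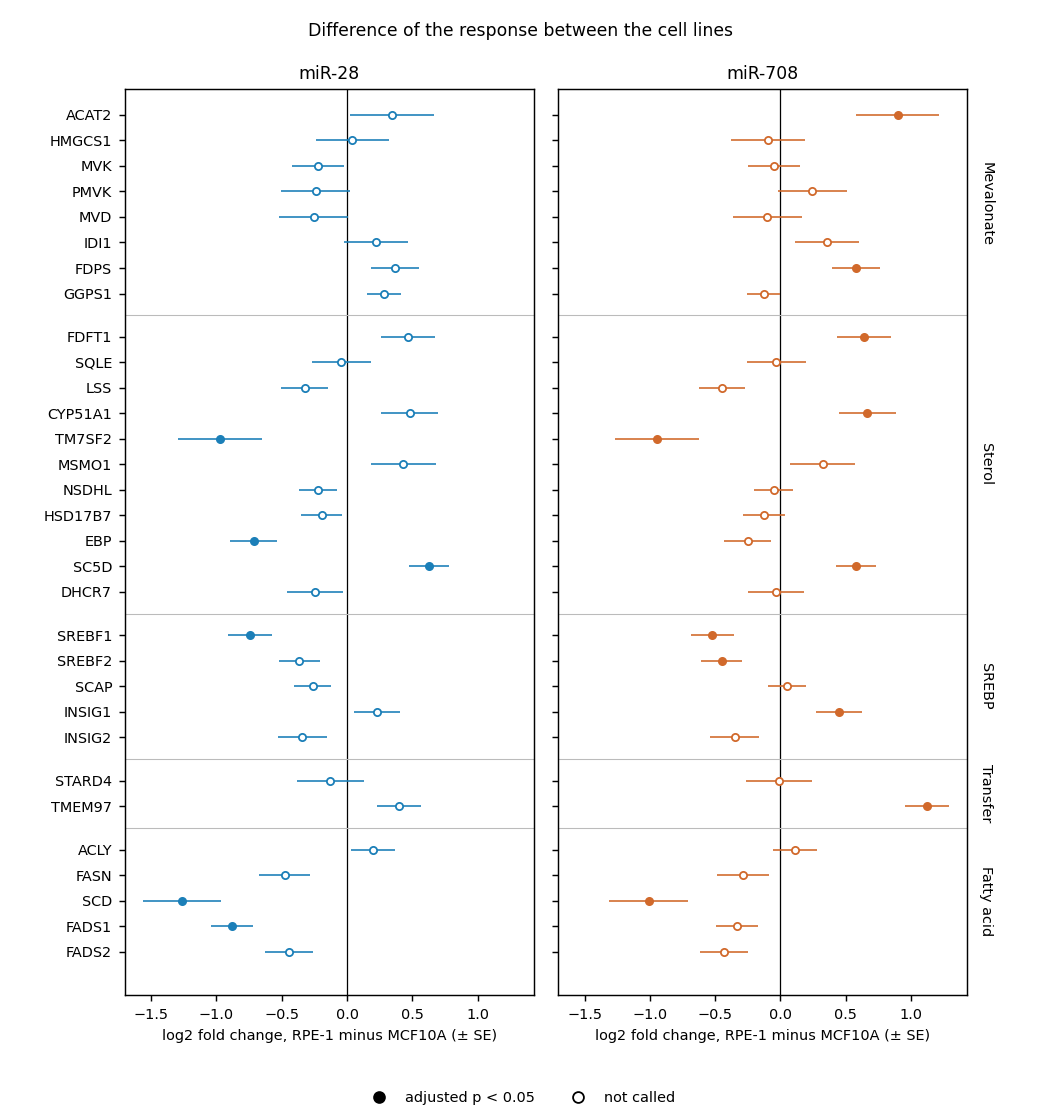
Log2 fold change against siNT in RPE-1 minus that in MCF10A (horizontal axis, points with standard errors) of the 31 genes, ordered by role, for miR-28 (left) and miR-708 (right); filled points have an adjusted p below 0.05. SCD, SREBF1 and TM7SF2 are filled left of 0 and SC5D right of 0 in both panels, and TMEM97 lies farthest right with miR-708.

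The members were next read beside the seed matches printed above. The 6 members with a match in the 3′ UTR or coding sequence had log2 fold changes between -1.33 and -0.53 with miR-708 in MCF10A and all 6 were called lower, as were 8 of the 25 members without a match. In RPE-1, 5 of the 6 were called lower with miR-708 and 11 of the 25. The exception, FDFT1, was at -0.03 ± 0.10 in RPE-1 although its 3′ UTR carries the match. Over all genes matched to a transcript, 29.4% of those with a 3′ UTR match, 21.6% of those with a match in the coding sequence alone and 15.1% of those with neither were lower with miR-708 in MCF10A, and 46.6%, 38.1% and 27.2% in RPE-1. The 4 members with coding matches alone (SCD, DHCR7, SREBF1 and SREBF2) had a median log2 fold change of -0.90 in MCF10A and -1.26 in RPE-1, where all genes of that class had -0.09 and -0.10. Members without either motif also fell with miR-708, such as TM7SF2 (-1.37 ± 0.20 in RPE-1), FADS2 and ACAT2. The coding sequences of TM7SF2 and ACAT2 hold the shorter match GCTCCT, the 6 letters that the motifs share. Such matches were not counted here, although the paper describes its RPS28 sites as seed matches of 6 letters. The paper gives both mimics the same seed, so the letters searched hold for miR-28 too. With miR-28, 20.0% of all genes with a 3′ UTR match, 13.6% with a coding match alone and 11.3% with neither were lower in MCF10A. The shares in RPE-1 were 38.1%, 28.9% and 19.8%. Members lower in the same order were 2 of 2, 3 of 4 and 4 of 25 in MCF10A, and 1, 4 and 10 in RPE-1. Whether the matches take part in any of these changes was not tested.

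Promoters were read because SREBPs act there with the CCAAT-binding factor NF-Y. RefSeq windows from 250 bases before to 50 after the start (GRCh38.p14) were at hand for 27 members, all but ACAT2, FASN, FDFT1 and SQLE. The letters CCAAT, on either strand, stood in a window of 21 of 27 (77.8%), against 39.7% of 27305 genes. The latter are all genes with a window, whether or not they were tested here, while the members all were. MVK and NSDHL had 5 matches each, and MVK was called lower while NSDHL was not called. A sterol regulatory element of the letters TCACNCCAC, on either strand, stood in 1 of 27 (3.70%), against 1.39% of genes, and that was SREBF2. It is shown because it is the only such match, at chr22:41832972-41832980, plus strand, position -133 from the start, with the match in capitals.
SREBF2 promoter: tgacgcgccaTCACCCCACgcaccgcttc
These windows and letters are narrow, and nothing follows from the lack of a match.

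Other genes of the pathway were read from 4 further lists. Their counts stand against the shares of all genes called lower and higher, which were 12% and 10.7% with miR-28 in MCF10A, 17.3% and 15.5% with miR-708 in MCF10A, 23.5% and 23.3% with miR-28 in RPE-1, and 31.2% and 30.9% with miR-708 in RPE-1. With lists this small, counts near these shares say nothing particular about a list. Of 14 tested genes of fatty acid synthesis beyond the members, 4 were lower and 1 higher with miR-28 in MCF10A, 4 and 2 with miR-708 in MCF10A, 5 and 3 with miR-28 in RPE-1, and 4 and 5 with miR-708 in RPE-1. The largest were ACSS2, which makes acetyl-CoA from acetate (-1.15 ± 0.14, -1.18 ± 0.14, -0.58 ± 0.12 and -0.58 ± 0.12 in that order, each called), ACACA, the carboxylase that makes malonyl-CoA (-0.51 ± 0.16, -0.65 ± 0.16, -0.94 ± 0.11 and -1.17 ± 0.11, each called), and ME1, which supplies NADPH (-0.94 ± 0.19, -0.86 ± 0.19, -0.57 ± 0.11 and -0.63 ± 0.11, each called). ACSS2, ACACA and ME1 thus fell beside SCD and FADS2.

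Of 10 tested genes that process SREBPs or degrade proteins of this system, 2 were lower with each mimic in MCF10A (12% and 17.3% of all genes), 2 lower and 1 higher with miR-28 in RPE-1, and 6 lower and 2 higher with miR-708 in RPE-1 (31.2% and 30.9% of all genes). MBTPS2, a protease that releases the SREBP domain, was called lower in each (-0.55 ± 0.12, -0.54 ± 0.12, -0.38 ± 0.08 and -0.44 ± 0.08). RNF139, a ubiquitin ligase, was at -0.43 ± 0.12, -0.48 ± 0.12, -0.17 ± 0.10 and -0.45 ± 0.10, called lower in all but miR-28 in RPE-1, and ERLIN1 was called higher in RPE-1 alone (0.30 ± 0.11 and 0.57 ± 0.11).

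In the list of liver X receptors and sterol efflux, storage and transport, 3 were lower and 1 higher of 12 with miR-28 in MCF10A (12% and 10.7% of all genes), and 2 and 2 with miR-708 (17.3% and 15.5%). Of 11 tested in RPE-1, 2 were lower and 3 higher with miR-28, and 5 and 3 with miR-708. MYLIP, the ligase that marks lipoprotein receptors for degradation, rose in RPE-1 (2.20 ± 0.30 and 1.84 ± 0.30, adjusted p = 0.000211 and 0.000324) and was not called in MCF10A (0.36 ± 0.24 and 0.06 ± 0.24). LIPA, the lysosomal lipase, was called higher in each (0.37 ± 0.11, 0.54 ± 0.11, 1.18 ± 0.20 and 1.17 ± 0.20), while NR1H3, a liver X receptor, was called lower in all but miR-28 in RPE-1 (-1.19 ± 0.34, -1.23 ± 0.34, -0.51 ± 0.29 and -0.85 ± 0.29).

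Among 12 enzymes that use isoprenoids outside the sterol route, 2 were lower and 0 higher with miR-28 in MCF10A, 4 and 1 with miR-708, 3 and 2 with miR-28 in RPE-1, and 3 and 3 with miR-708, to be read against the same shares of all genes. FNTA, a prenyltransferase subunit, was called lower in each (-0.52 ± 0.12, -0.40 ± 0.12, -0.52 ± 0.09 and -0.78 ± 0.09). PDSS1 and COQ2, of ubiquinone synthesis, were highest with miR-708 in RPE-1 (1.12 ± 0.13 and 0.92 ± 0.18, both called). PDSS1 was not called in MCF10A (-0.25 ± 0.14 and -0.22 ± 0.14).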

How the data were processed

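Polyadenylated RNA of 18 libraries was sequenced, 3 per group and line, and the labels call them biological replicates. Per the study's methods, the authors aligned reads to hg38 with HISAT2 2.1.0 and estimated reads per RefSeq gene with the Partek expectation-maximization model, which can divide reads between similar genes; the strand of counting is not given in the sources used here. The deposited signal values are these estimated reads after division by a median-ratio size factor of the library, in a separate table per line. Between 80.2% and 83.9% of low values lay within 0.05 of a whole multiple of 1 read, too few to recover reads, so no count test was run. The authors' tables of comparisons (linear and log2 ratios, p-values, FDR) were not used. Every column of per-sample values was used (0 left out).

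A gene was tested in a line if 3 or more of its 9 libraries held a value of 10 or more (14726 in MCF10A, 14527 in RPE-1, 13339 in both), and all 31 members passed in both lines, each in every library. limma 3.58.1 in R 4.3.3 was fitted on log2(value + 1) over all 3 groups of a line with a trended prior, and p-values were adjusted by Benjamini-Hochberg over all genes tested. This scale slightly understates changes of low genes. Differences between the lines were differences of the limma fold changes with Welch-Satterthwaite degrees of freedom. The procedure was tested on simulated data. Figures were drawn with matplotlib 3.10.9, and summaries were made with pandas 2.3.3 and numpy 2.4.6 under Python 3.11.15. Sequences came from GENCODE 44 on hg38 and from RefSeq.

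The members and lists were chosen with earlier results of these data known. Values of each library are given for MSMO1 and SREBF2 (marked by the study as microRNA targets), for the 2 members of each role with the largest mean size of the 4 log2 fold changes against siNT, and for members called between the mimics, or between the lines with both mimics. For each further list the 3 genes with the largest mean size are named.

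Deviations of same-numbered libraries from their group means correlated in MCF10A at 0.26, 0.18 and 0.11 (miR-28 with siNT) and 0.30, 0.11 and 0.16 (miR-708 with siNT), over genes, and in RPE-1 at 0.28, 0.20 and 0.13 between the mimics, so the numbers were taken to pair these libraries. In RPE-1 those with siNT were 0.02 to 0.15 and were not taken as pairs. Equal numbers of the mimics in MCF10A correlated at only 0.12, 0.02 and 0.18. Mimic and siNT libraries of different numbers in MCF10A correlated at -0.2 to 0.11, so the lowest values of equal numbers are not set apart. The pairing is a reading of the data, as the labels give the numbers but do not say that equal numbers are pairs. Single libraries were left out only in fits without the block. With the block and all libraries, the MCF10A calls against siNT lost there had limma adjusted p from 0.000185 (ACAT2, miR-708) to 0.0461 (GGPS1, miR-708).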

Additional observations from a re-analysis of the deposited data

Results flagged for a closer look

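The members listed here were called different between the 2 lines by the limma-based test of the difference itself. The measure was the log2 fold change in RPE-1 minus that in MCF10A, and a call needed an adjusted p below 0.05. With miR-28, TM7SF2 (-0.974), EBP (-0.715), SREBF1 (-0.741), SCD (-1.261) and FADS1 (-0.883) were lower in RPE-1 by this measure and SC5D (0.63) was higher. With miR-708, TM7SF2 (-0.944), SREBF1 (-0.521), SREBF2 (-0.45) and SCD (-1.011) were lower, and ACAT2 (0.897), FDPS (0.58), FDFT1 (0.642), CYP51A1 (0.665), SC5D (0.578), INSIG1 (0.448) and TMEM97 (1.122) were higher. With miR-28, 19.4% of the members were called, against 23.4% of all genes, and with miR-708 35.5% against 39.8%. Members were thus not called more often than genes in general. Of these calls, 1 of 6 with miR-28 and 8 of 11 with miR-708 were lost without some single library. Tables of the lines were scaled separately, and each line has its own set of replicates. Groups of 3 were not tested for single deviating libraries.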

How the results depend on the processing

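Under 28 other settings, 4571 of 4867 values of single members kept their side of the threshold, 178 lost a call and 113 gained one. Another 5 turned, that is changed sign with a call before or after. A change of sign between values without a call was not counted. The 5 that turned did so with miR-708 in RPE-1 when libraries were scaled to their totals: FDFT1 to 0.287, NSDHL to 0.262, SCAP to 0.011, ACLY to 0.010 and FADS1 to 0.046 on the log2 scale. That scaling gave 10 members lower, 12 higher and a median of 0.046 there, 12 higher and a median of 0.346 for miR-708 against miR-28 in RPE-1, and 1 lower and a median of 0.128 for the difference between the lines with miR-708. With the replicate number as a block, the difference between the lines with miR-28 had 3 members higher, and no call of a member was lost in any comparison. The block gained STARD4 with miR-708 in RPE-1 (adjusted p = 0.0206), where the numbers were not taken as pairs. Without a trend in limma's prior, 5 were lower and 1 higher with miR-28 in MCF10A. A fit of the 6 libraries compared called 8 higher with miR-708 in RPE-1. Without MCF10A replicate 7, chosen after seeing the data, miR-28 in MCF10A had 16 lower and 1 higher, and its difference between the lines 7 higher. Asking for at least 1.5-fold left 0 higher with miR-28 in MCF10A, 9 lower and 0 higher with miR-708 in MCF10A, 1 higher with miR-28 in RPE-1, 10 lower and 2 higher with miR-708 in RPE-1, and 1 higher between the mimics in RPE-1. The shares of all genes called under the 28 settings were not computed, so the counts of members stand without them. The cause of these shifts was not tested.

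Leaving out single libraries gave ranges. With miR-28 in MCF10A, 4 to 13 members were lower, 0 to 2 higher and the median was -0.44 to -0.223. With miR-708 in MCF10A the ranges were 7 to 18, 2 to 4 and -0.517 to -0.29. Between the mimics in MCF10A, 0 were called and the median was -0.222 to 0.067. With miR-28 in RPE-1, 14 to 17 were lower, 1 to 3 higher and the median was -0.371 to -0.281. With miR-708 in RPE-1 the ranges were 13 to 16, 2 to 7 and -0.303 to -0.214. The higher count there became 3 without siNT replicate 1 or replicate 3, and 2 without miR-708 replicate 1. Between the mimics in RPE-1, 0 were lower, 2 to 6 higher, 2 being the count without miR-708 replicate 1 or replicate 2, and the median was 0.008 to 0.156. For the difference between the lines, 4 to 7 were lower and 1 to 2 higher with miR-28 (median -0.271 to -0.118), and 2 to 6 lower and 2 to 9 higher with miR-708 (median -0.155 to 0.039). With 3 libraries a group, an absent call does not show an absent change.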
